A study of Mus musculus with 12 samples.

Results

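A set of 10 genes of arginine, nitric oxide, itaconate and polyamine metabolism, *Nos2*, *Acod1*, *Arg1*, *Arg2*, *Ass1*, *Asl*, *Slc7a2*, *Gch1*, *Odc1* and *Sat1*, was followed in mouse PECs stimulated with LPS. They were taken by gene symbol from the table of 12850 listed genes, all 10 were found, and all 10 were among the 11885 genes tested. PECs are the peritoneal exudate cells that gather after an injection of thioglycollate, an irritant. They came from C57BL/6 mice, either WT or homozygous for the knock-in allele *Zc3h12a*S513A (called S513A), made by CRISPR/Cas9, in which a serine of the RNase Regnase-1 that 14-3-3 proteins bind is replaced by alanine. The cells were cultured without LPS (0 hr) or with 100 ng/ml LPS, a component of the bacterial outer membrane, for 4 or 8 hr. Each of the 6 groups (WT and S513A at 0, 4 and 8 hr) had 2 libraries, 12 libraries in all.

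The labels do not say whether replicates came from separate mice, so p values measure the spread between libraries, which may be technical. The 12 libraries held 9525979 to 12439960 reads on the listed genes, and 3 reads, taken as the floor, lay at a log2 CPM (CPM, read count scaled to a common library size) of -2.04 to -1.30. The WT libraries at 4 hr differed most from each other, with an SD of 0.40 over genes for their log2 difference, against 0.16 to 0.34 in the other 5 groups. All 7 macrophage markers examined were listed, with a summed level of 16650 to 27790 CPM in every library, most of it from *Lyz2*. None of 4 T cell markers was listed, and the 4 B cell markers summed to at most 8.87 CPM. Neutrophil markers were listed for 4 of 8 genes, without *Ly6g* and *S100a9*, and summed to 490.8 to 828.5 CPM, most of it from *Mmp8*. The S513A allele is a substitution, so the level of *Zc3h12a* RNA does not check the genotype labels.

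Arginine stands at a branch point of macrophage metabolism. It enters through cationic amino acid transporters such as the product of *Slc7a2*. *Nos2* encodes the inducible nitric oxide synthase, which turns arginine into nitric oxide and citrulline with tetrahydrobiopterin as a cofactor, and *Gch1* encodes GTP cyclohydrolase 1, the entry enzyme of tetrahydrobiopterin synthesis. The argininosuccinate synthase *Ass1* and lyase *Asl* rebuild arginine from citrulline. The arginases *Arg1* (cytosolic) and *Arg2* (mitochondrial) instead split arginine into urea and ornithine, from which the ornithine decarboxylase *Odc1* makes the polyamine putrescine, while *Sat1* acetylates spermidine and spermine for export or breakdown. *Acod1* makes itaconate from the citrate cycle intermediate cis-aconitate, a product typical of macrophages activated through Toll-like receptors.

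All 10 genes are protein coding. On the GRCm38 assembly, *Slc7a2* lies at chr8:40862396-40922308 (+), *Ass1* at chr2:31470207-31520672 (+), *Asl* at chr5:130011258-130029247 (-), *Nos2* at chr11:78920787-78960254 (+) and *Gch1* at chr14:47153895-47189413 (-). *Acod1* lies at chr14:103046977-103056573 (+), *Arg1* at chr10:24915221-24927484 (-), *Arg2* at chr12:79130777-79156301 (+), *Odc1* at chr12:17544794-17551505 (+) and *Sat1* at chrX:155213132-155216449 (-). Promoters, taken as 250 bases before to 50 bases after the RefSeq start site, were matched for 5 of the 10 genes: *Acod1*, *Gch1*, *Ass1*, *Odc1* and *Sat1*. The stretches of 30 bases shown here hold the matches nearest the start site in the promoters of the 3 among these 5 genes whose RNA was higher with LPS at both times. They run 5′ to 3′ on the strand of the gene, are credited to RefSeq on GRCm38.p6, and have the matching letters in capitals.
Acod1, chr14:103046972-103047001 (+), positions -40 to -11 from the start site: ggagtgactgtgTATAAAggcacacgtcca
Gch1, chr14:47189414-47189443 (-), positions -30 to -1: cataaaaagagaggcgcggcGGGGCTCCCC
Ass1, chr2:31470222-31470251 (+), positions -48 to -19: cgcgcccgtcccCACGTGtcccaggttcct

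The 7 motifs searched on both strands were the TATA box TATAAA, the E-box CACGTG, the AP-1 motif TGANTCA, the C/EBP-like motif TTGCNNAA, the STAT-like motif TTCNNNGAA, the interferon-stimulated response element and the NF-kB consensus. The *Acod1* promoter held TATAAA at positions -28 to -23, a motif present in 14.2% of 27025 promoters of the same length. The *Gch1* promoter held an NF-kB consensus match at -10 to -1, which reads as a match on both strands, and TATAAA on the opposite strand at -188 to -183; the NF-kB consensus was present in 8.18% of promoters. The *Ass1* promoter held CACGTG at -36 to -31, present in 7.24% of promoters. None of the 7 motifs was in the *Odc1* or *Sat1* promoter, and the AP-1, C/EBP-like and STAT-like motifs and the interferon element, present in 7.93%, 10.8%, 8.47% and 3.49% of promoters, were in none of the 5. The GENCODE models of *Acod1* and *Ass1* start upstream of the RefSeq start site, so parts of these promoters are annotated there as exon. The capital letters of both stretches lie downstream of the GENCODE start of the gene. A match describes letters only and was not tested for binding or function.

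The first question was how LPS changed the genes, and it was addressed by the mean of both genotypes (4 libraries per time) in a limma model of all 12 libraries. At 4 hr against 0 hr, 6 of the 10 genes were higher (*Nos2*, *Acod1*, *Slc7a2*, *Gch1*, *Ass1* and *Sat1*), *Arg1* was lower, and *Arg2*, *Asl* and *Odc1* did not pass the test (threshold 0.05 on the adjusted p). Among the 11885 genes of the fit, 29.1% were higher and 26.7% lower in this comparison. The median log2 fold change was 0.74 over the 10 genes and 0.017 over all genes. At 8 hr against 4 hr, *Ass1* was higher, *Acod1*, *Slc7a2*, *Arg1* and *Sat1* were lower, and 5 genes did not pass, where 12.8% of all genes were higher and 12.8% lower. At 8 hr against 0 hr, 5 genes were higher and 3 lower (*Arg1*, *Odc1* and *Sat1*), where 24.5% of all genes were higher and 21.6% lower. These comparisons share libraries and are not independent of each other. In bulk RNA of PECs, fewer cells of a type and less RNA per cell cannot be told apart.

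**Figure D1:**
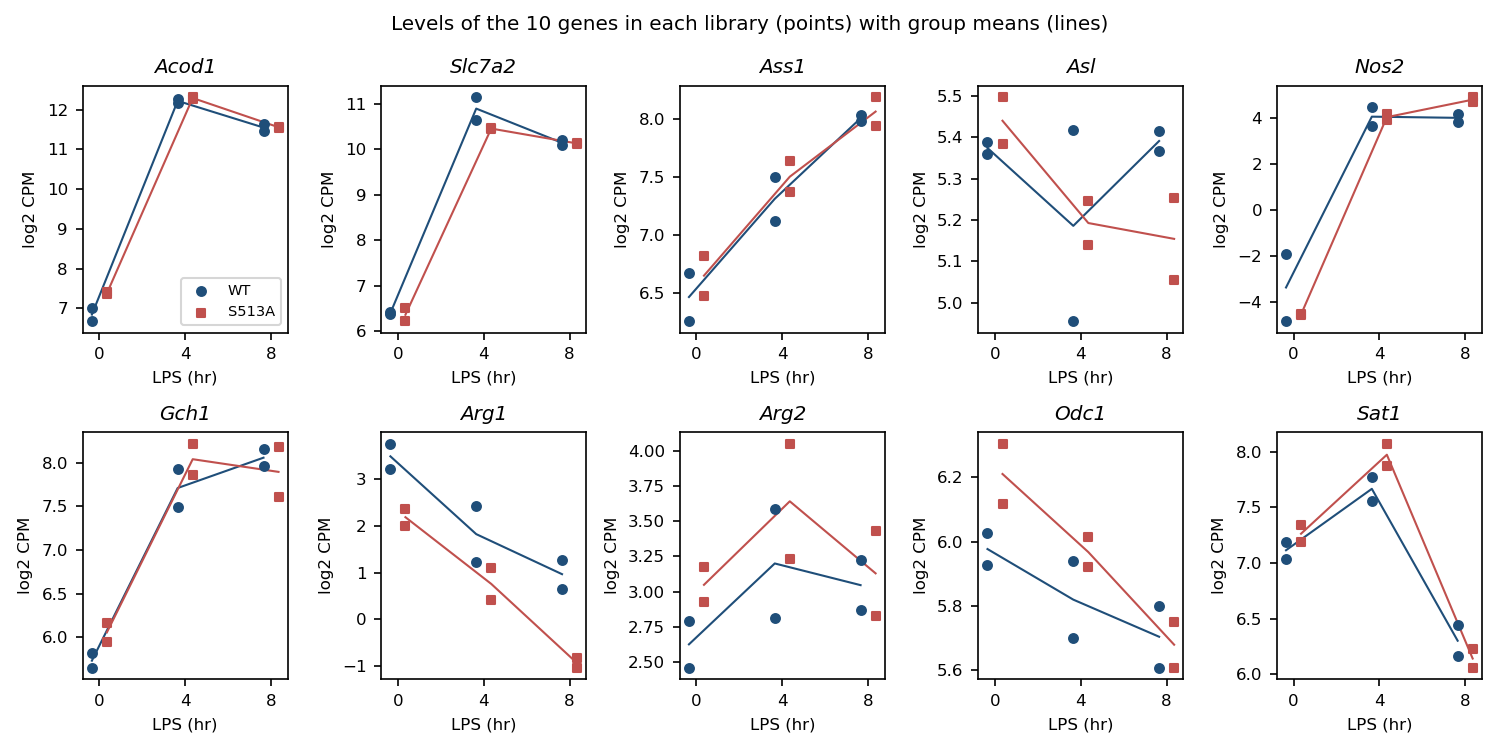
Level of each of the 10 genes (log2 CPM, with its own axis range per gene) against hours of LPS, with 1 point per library (blue circles WT, red squares S513A, shifted sideways so that they do not overlap) and lines through the group means. *Acod1*, *Slc7a2*, *Nos2* and *Gch1* stand far above their 0 hr levels at 4 and 8 hr, *Sat1* peaks at 4 hr, and *Arg1* falls at each step with the S513A libraries below the WT libraries at every time.

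RNA of the arginine transporter *Slc7a2* rose at 4 hr and fell in part by 8 hr. The *Slc7a2* log2 CPM was 6.43 and 6.38 in the WT libraries and 6.22 and 6.51 in the S513A libraries at 0 hr. It was 10.65 and 11.15 in WT and 10.48 and 10.44 in S513A at 4 hr, and 10.09 and 10.20 in WT and 10.12 and 10.15 in S513A at 8 hr. Every stimulated library lay above every unstimulated library, and every library at 8 hr lay below every library at 4 hr. The log2 fold change was 4.30 at 4 hr (SE 0.11, limma adjusted p = 2.75e-10), a 19.7-fold rise, and *Slc7a2* then fell by 0.54 from 4 to 8 hr (SE 0.11, adjusted p = 0.00527).

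The recycling pair was not alike. *Ass1*, which joins citrulline to aspartate, was at a log2 CPM of 6.68 and 6.26 in WT and 6.48 and 6.82 in S513A at 0 hr, 7.50 and 7.12 in WT and 7.37 and 7.63 in S513A at 4 hr, and 7.98 and 8.03 in WT and 7.94 and 8.19 in S513A at 8 hr. The 3 times did not overlap. *Ass1* rose by 0.85 at 4 hr (SE 0.13, adjusted p = 0.000243) and by a further 0.63 from 4 to 8 hr (SE 0.13, adjusted p = 0.00557), which made it the only gene of the 10 called higher in both steps, and it stood 2.78-fold above its unstimulated level at 8 hr. *Asl*, which releases arginine in the next reaction, was at 5.39 and 5.36 in WT and 5.50 and 5.38 in S513A at 0 hr. Its log2 CPM was 5.42 and 4.96 in WT and 5.25 and 5.14 in S513A at 4 hr, and 5.37 and 5.42 in WT and 5.06 and 5.25 in S513A at 8 hr. The times overlapped for *Asl*, and its differences of -0.22 at 4 hr (95% confidence interval -0.45 to 0.014, adjusted p = 0.10) and -0.13 at 8 hr against 0 hr (-0.37 to 0.10, adjusted p = 0.328) did not pass the test. Without the first WT library of 4 hr, the difference of *Asl* at 4 hr was -0.33 and passed (adjusted p = 0.0060).

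*Nos2* went from almost no reads to a moderate level. At 0 hr it was counted 0 and 3 times in the WT libraries and 0 and 0 times in the S513A libraries. It was counted 144 and 240 times in WT and 154 and 154 times in S513A at 4 hr, and 152 and 189 times in WT and 301 and 278 times in S513A at 8 hr. All 8 stimulated libraries were far above the floor of 3 reads, and no unstimulated library exceeded it. Relative to library size, *Nos2* was 285 times as abundant at 4 hr as at 0 hr over both genotypes (95% exact counting interval 97.1 to 1385) and 371 times as abundant at 8 hr (127 to 1804). Because the 3 reads at 0 hr all come from the second WT library, the ratio in WT alone was 157 (53.5 to 767) at 4 hr and 148 (50.2 to 721) at 8 hr, while in S513A, with 0 reads at 0 hr and the floor of 3 reads per library, *Nos2* was at least 63.8-fold higher at 4 hr and at least 108-fold higher at 8 hr. These intervals and floors cover counting error only. The test passed at 4 hr (adjusted p = 1.89e-07) and at 8 hr (adjusted p = 1.74e-07) against 0 hr. The difference between 8 and 4 hr was 0.35 on the log2 scale (95% confidence interval -0.74 to 1.45, adjusted p = 0.644). This interval, like the other limma intervals of *Nos2*, uses 1 spread shared by all groups. Most of that spread came from the WT libraries of 0 hr, with an SD of 2.09. The SD was 0.15 to 0.56 in the groups of 4 and 8 hr.

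*Gch1*, for the cofactor of *Nos2*, rose at 4 hr and stayed near that level. Its log2 CPM was 5.81 and 5.65 in WT and 5.94 and 6.17 in S513A at 0 hr, 7.93 and 7.49 in WT and 7.86 and 8.22 in S513A at 4 hr, and 7.96 and 8.16 in WT and 7.61 and 8.18 in S513A at 8 hr. Stimulated and unstimulated libraries did not overlap, whereas the libraries of 4 and 8 hr did. The log2 fold change was 1.98 at 4 hr (SE 0.15, adjusted p = 8.25e-07), that is 3.95-fold, and 0.10 from 4 to 8 hr (95% confidence interval -0.23 to 0.43, adjusted p = 0.659).

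*Acod1* was the most abundant of the 10 genes per length at both stimulated times. Its log2 CPM was 7.01 and 6.67 in WT and 7.35 and 7.40 in S513A at 0 hr. It was 12.27 and 12.17 in WT and 12.31 and 12.27 in S513A at 4 hr, and 11.47 and 11.64 in WT and 11.54 and 11.57 in S513A at 8 hr. The 4 libraries of each stimulated time were tightly grouped, with an SD of 0.06 at 4 hr and 0.07 at 8 hr (n = 4), and the 3 times did not overlap. *Acod1* rose by 5.15 at 4 hr (SE 0.09, adjusted p = 3.10e-11), a 35.5-fold change, and then fell by 0.70 from 4 to 8 hr (SE 0.09, adjusted p = 0.000392), to 21.8-fold above 0 hr.

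In the mean of both genotypes *Arg1* was lower at each step, whereas *Arg2* passed no test. The log2 CPM of *Arg1*, the arginase often used as a marker of alternatively activated macrophages, was 3.75 and 3.21 in WT and 2.00 and 2.37 in S513A at 0 hr. It was 2.41 and 1.23 in WT and 0.41 and 1.10 in S513A at 4 hr, and 1.28 and 0.65 in WT and -0.83 and -1.04 in S513A at 8 hr. These levels rest on few reads, from 45 to 193 per library at 0 hr down to 4 to 25 at 8 hr. Within each genotype the libraries of 0 hr lay above those of 4 hr, and in S513A those of 4 hr lay above those of 8 hr. *Arg1* fell by 1.54 at 4 hr (SE 0.29, adjusted p = 0.00101) and by a further 1.27 from 4 to 8 hr (SE 0.29, adjusted p = 0.00908), and was 7.05-fold lower at 8 hr than at 0 hr (adjusted p = 1.59e-05). The call from 4 to 8 hr was lost with limma's voom weights (adjusted p = 0.0632), and with 1 CPM added before the log2 the changes of *Arg1* were -1.22 at 4 hr, -0.73 from 4 to 8 hr and -1.95 at 8 hr against 0 hr. The sum of the eosinophil markers (2 of 4 listed, nearly all from *Siglecf*, without *Epx* and *Prg2*) was also lower at each later time. It was 15.31 to 18.46 CPM at 0 hr, 8.017 to 10.04 at 4 hr and 3.622 to 4.579 at 8 hr over both genotypes. Only *Siglecf* fell. *Ccr3*, the other listed marker, was close to the floor, at 0.115 to 0.174 CPM at 0 hr and 0.237 to 0.647 at 8 hr. The part of eosinophils in the fall of *Arg1* was not tested.

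*Arg2* was at a log2 CPM of 2.79 and 2.46 in WT and 2.92 and 3.17 in S513A at 0 hr, 3.59 and 2.81 in WT and 3.23 and 4.05 in S513A at 4 hr, and 3.23 and 2.87 in WT and 2.83 and 3.43 in S513A at 8 hr. The libraries of the 3 times overlapped. The difference of 0.58 at 4 hr did not pass the test (95% confidence interval 0.07 to 1.10, adjusted p = 0.0525), nor did that of 0.25 at 8 hr against 0 hr (-0.26 to 0.76, adjusted p = 0.413). Without the second WT library of 4 hr the adjusted p of *Arg2* at 4 hr was 0.0148, and without the first S513A library of 4 hr it was 0.0153.

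The polyamine enzymes differed in timing. *Odc1*, which turns ornithine into putrescine, was at 5.93 and 6.03 in WT and 6.12 and 6.31 in S513A at 0 hr, 5.94 and 5.70 in WT and 5.92 and 6.01 in S513A at 4 hr, and 5.61 and 5.80 in WT and 5.61 and 5.75 in S513A at 8 hr. All libraries of 8 hr lay below all of 0 hr. The difference of -0.20 at 4 hr did not pass the test (SE 0.09, adjusted p = 0.0787), but that of -0.40 at 8 hr against 0 hr did (SE 0.09, adjusted p = 0.0036). Without the first WT library of 4 hr the step to 4 hr passed (adjusted p = 0.0277), and without the second WT library of 4 hr the step of *Odc1* from 4 to 8 hr passed (-0.26, adjusted p = 0.0487).

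*Sat1*, which acetylates polyamines, was at a log2 CPM of 7.04 and 7.19 in WT and 7.34 and 7.19 in S513A at 0 hr. It was 7.77 and 7.56 in WT and 7.87 and 8.07 in S513A at 4 hr, and 6.16 and 6.44 in WT and 6.06 and 6.22 in S513A at 8 hr. The 3 times did not overlap, with 4 hr highest and 8 hr lowest. *Sat1* rose by 0.63 at 4 hr (SE 0.10, adjusted p = 0.000231), fell by 1.6 from 4 to 8 hr (SE 0.10, adjusted p = 5.69e-06), and ended 1.96-fold below its level at 0 hr (adjusted p = 1.19e-05). It was the only gene of the 10 called higher at 4 hr and lower at 8 hr, both against 0 hr.

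**Figure D2:**
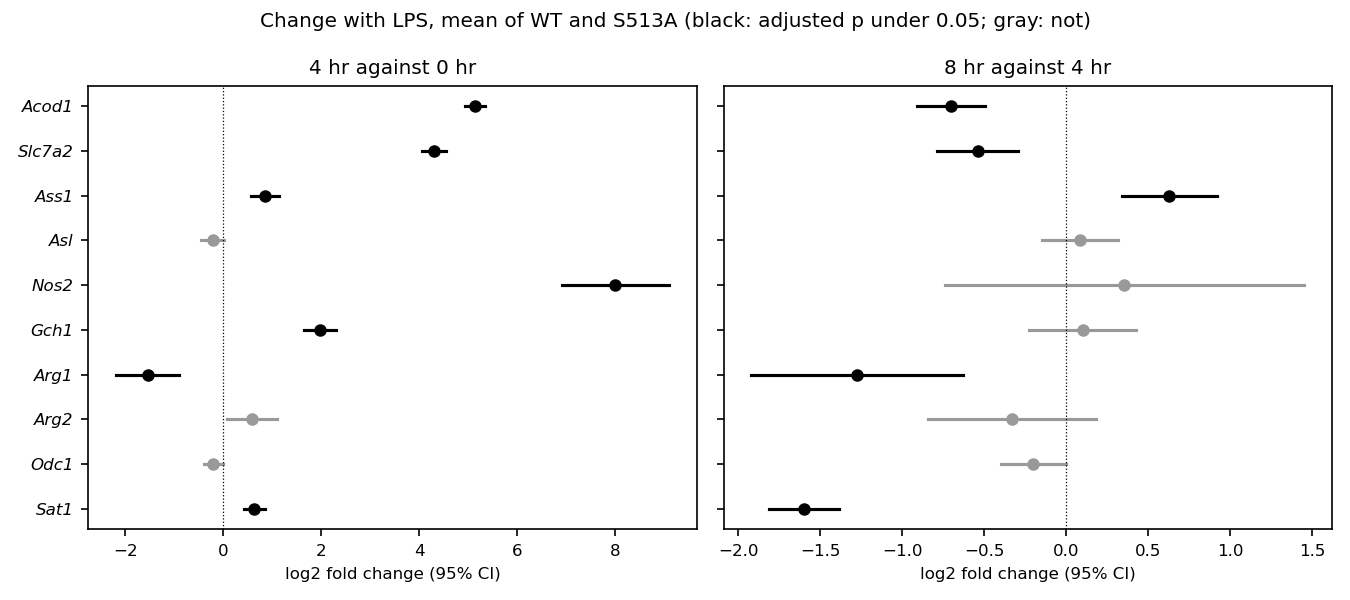
Log2 fold change of the 10 genes at 4 hr against 0 hr (left) and at 8 hr against 4 hr (right), as the mean of WT and S513A (4 libraries per time), with 95% confidence intervals from limma. Black points passed an adjusted p of 0.05 and gray points did not; the *Nos2* value at 4 hr depends on the 0.5 read added to each count. At 4 hr 6 genes are black to the right of 0 and *Arg1* is black to the left, and from 4 to 8 hr *Ass1* is the only gene black to the right.

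To compare levels between genes, CPM was divided by the length of all annotated exons in kb and averaged over the 4 libraries of a time. This length joins the exons of all annotated models of a gene and can exceed that of the RNA expressed. The level per kb is then too low, by an amount that may differ between genes, and the order below depends on it. At 0 hr the order ran from *Acod1* (53.7 CPM per kb), *Sat1* (52.7), *Ass1* (39.5) and *Odc1* (20.2) through *Gch1* (9.59), *Slc7a2* (9.16) and *Asl* (8.79) to *Arg2* (5.08), *Arg1* (3.58) and *Nos2* (0.0221). This *Nos2* value came from the 3 reads of the second WT library and the 0.5 read added to each count. Among neighbors in this order, the ranges over libraries overlapped between *Acod1* and *Sat1*, *Gch1* and *Slc7a2*, *Slc7a2* and *Asl*, and *Arg2* and *Arg1*. Those of *Acod1* and *Ass1*, and of *Gch1* and *Asl*, which are not neighbors, overlapped too. At 4 hr *Acod1* stood at 1869 CPM per kb and *Slc7a2* at 183, followed by *Sat1* (82.2), *Ass1* (70.9), *Gch1* (38.2), *Odc1* (17.5), *Arg2* (7.88), *Asl* (7.61), *Nos2* (3.85) and *Arg1* (1.25). Only *Sat1* and *Ass1*, and *Arg2* and *Asl*, overlapped as neighbors in that order. *Arg2* and *Nos2*, not neighbors there, overlapped as well. At 8 hr the order was *Acod1* (1148), *Slc7a2* (124), *Ass1* (109), *Gch1* (40.8), *Sat1* (27.0), *Odc1* (15.2), *Asl* (8.04), *Arg2* (6.05), *Nos2* (5.03) and *Arg1* (0.566). *Slc7a2* and *Ass1*, *Gch1* and *Sat1*, *Asl* and *Arg2*, and *Arg2* and *Nos2* overlapped at 8 hr. *Slc7a2* thus moved from the sixth to the second place, while *Nos2* stayed among the lowest 2 genes at each time.

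The next question was whether Regnase-1 S513A changed these genes. None of the 10 genes passed the test between S513A and WT at 0, 4 or 8 hr or in the mean of the 3 times, where 0.0337%, 0.0168%, 0.0337% and 0.0673% of all genes tested were called by limma (4, 2, 4 and 8 genes). At an unadjusted p under 0.05, the counts of the 10 genes were 2, 3, 1 and 2, against 949, 833, 1487 and 798 of all 11885 genes. With limma's voom weights, too, 0 of the 10 genes were called in each of these comparisons. Nor did any of the 10 genes, or any gene at all (0% at 4 hr and 0% at 8 hr), pass the test of whether the LPS response differed between genotypes, where 1 of the 10 genes and 144 of all genes at 4 hr, and 1 and 2405 at 8 hr, had an unadjusted p under 0.05. Without the second S513A library of 8 hr, 651 genes passed the test at 8 hr, with 0 of the 10 among them.

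*Arg1* had the lowest unadjusted p of the 10 genes in the mean of the times. As given above, both S513A libraries lay below both WT libraries at each time. The log2 difference, S513A against WT, was -1.30 at 0 hr (SE 0.41, adjusted p = 0.586), -1.06 at 4 hr (SE 0.41, adjusted p = 0.622), -1.90 at 8 hr (SE 0.41, adjusted p = 0.395) and -1.42 in the mean of the times (SE 0.24, 95% confidence interval -1.95 to -0.89, adjusted p = 0.102). It therefore did not pass the correction over all genes, although without the second WT library of 4 hr the mean difference of *Arg1* was -1.62 with an adjusted p of 0.0321. The difference at 4 hr was -0.47 without the first and -1.66 without the second WT library of 4 hr, and with 1 CPM added before the log2 the difference of *Arg1* at 8 hr was -0.96. At 0 hr, 5 markers of resident peritoneal macrophages (5 of 5 listed, most of the sum from *Fn1*) summed to 1431 to 1805 CPM in WT and 715.7 to 794.1 in S513A. Their sum was 2244 to 4784 in WT and 1372 to 1982 in S513A at 4 hr, and 1516 to 1716 in WT and 1465 to 2491 in S513A at 8 hr, so that it was lower in S513A at 0 and 4 hr and overlapped at 8 hr. Without *Fn1*, left out after its values were seen, the other 4 markers summed to 21.3 to 26.1 CPM in WT and 16.2 to 20.8 in S513A at 0 hr. The sums were 32.1 to 34.8 and 18.9 to 26.3 at 4 hr, and 40.1 to 48.0 and 23.5 to 28.3 at 8 hr. This sum was lower in S513A at every time, but at 4 and 8 hr most of it came from *Timd4*. *Timd4* overlapped between genotypes at 0 hr and was lower in S513A at 4 and 8 hr. *Selp* was lower in S513A at 0 and 4 hr and overlapped at 8 hr. *Gata6* and *Icam2* overlapped between genotypes at every time. Mesothelial markers (3 of 4 listed) at 0 hr summed to 1.73 to 2.27 CPM in WT and 0.797 to 1.10 in S513A, to 0.965 to 1.28 and 0.639 to 1.53 at 4 hr, and to 0.902 to 1.19 and 0.487 to 0.733 at 8 hr. None of these markers exceeded 0.941 CPM in any library, and some values lay below the floor of 3 reads. At 0 hr *Msln* and *Wt1* were lower in S513A and *Upk3b* overlapped. At 8 hr *Upk3b* was lower in S513A, whereas *Msln* and *Wt1* overlapped. The part of resident macrophages and mesothelial cells in the *Arg1* difference was not tested.

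*Acod1* was higher in both S513A libraries than in both WT libraries at 0 hr, with a difference of 0.53 (95% confidence interval 0.24 to 0.83, adjusted p = 0.586). At 4 and 8 hr its differences were 0.07 (-0.22 to 0.36) and 0.0084 (-0.28 to 0.30), and the difference in LPS response was -0.46 at 4 hr (adjusted p = 1.00) and -0.53 at 8 hr (adjusted p = 0.199). In a model of the 4 libraries of 0 hr alone, *Acod1* and *Arg1* had adjusted p values of 0.0444 and 0.0403, where 693 of all genes were called instead of 4. For *Nos2* both S513A libraries at 8 hr lay above both WT libraries, with a difference of 0.79 whose interval spans 0 (-0.76 to 2.34, adjusted p = 0.578). That interval is set mainly by the spread of the WT libraries at 0 hr, whereas the SD at 8 hr was 0.23 in WT and 0.15 in S513A. The change in response of *Nos2* was 1.97 (adjusted p = 0.276) and rests on libraries with 0 to 3 reads at 0 hr. *Slc7a2* at 4 hr was -0.44 (-0.79 to -0.09) and *Sat1* at 4 hr 0.31 (0.0039 to 0.61) from WT, both with an adjusted p of 0.622. The *Slc7a2* difference ran from -0.69 without the first to -0.19 without the second WT library of 4 hr, and the change in response of *Nos2* at 8 hr from 3.44 without the first to 0.49 without the second WT library of 0 hr.

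The mean difference over the 3 times was 0.32 for *Arg2* (95% confidence interval -0.10 to 0.73) and 0.14 for *Ass1* (-0.09 to 0.38). It was -0.05 for *Asl* (-0.24 to 0.13), 0.16 for *Gch1* (-0.10 to 0.43) and 0.12 for *Odc1* (-0.04 to 0.28), and none of these passed the test. The mean differences of *Acod1* (interval 0.04 to 0.37, adjusted p = 0.672), *Slc7a2* (-0.37 to 0.04), *Sat1* (-0.08 to 0.27) and *Nos2* (-1.03 to 0.76) did not pass the test either. With 2 libraries per group the median SE of a difference at a single time was 0.18, and a call that fails here does not show that the genotypes are alike.

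**Figure D3:**
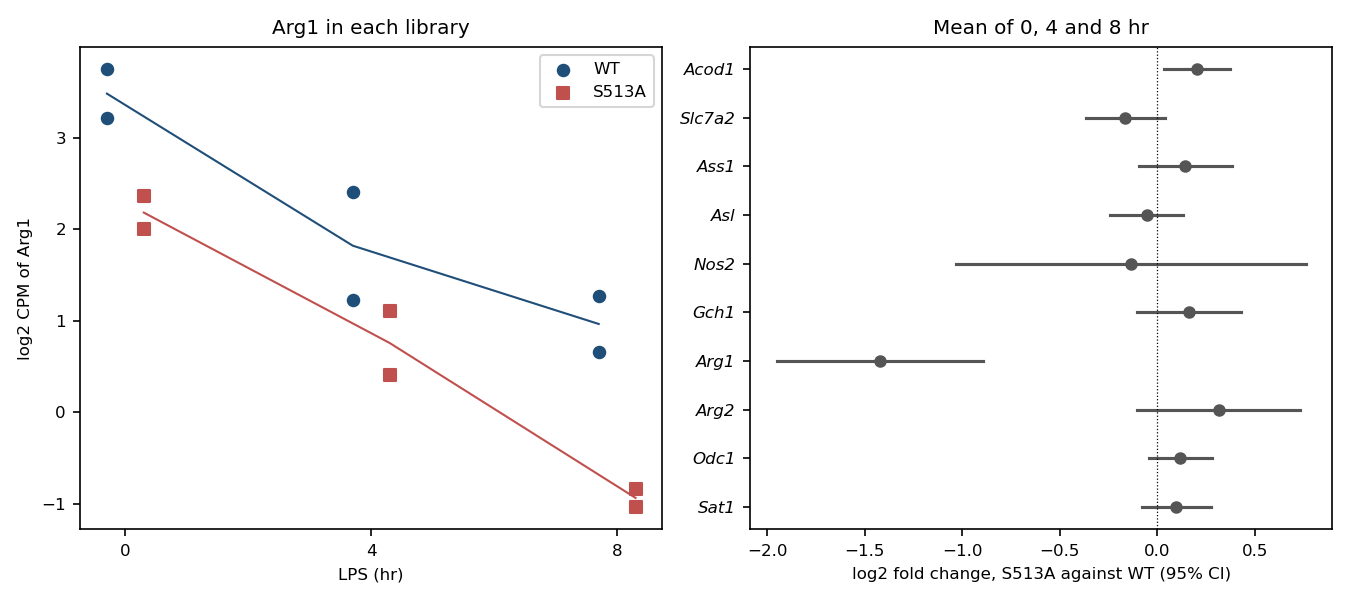
Left: *Arg1* in each library (log2 CPM) against hours of LPS, blue circles for WT and red squares for S513A, with lines through the group means. Right: log2 fold change of S513A against WT averaged over 0, 4 and 8 hr for the 10 genes, with 95% confidence intervals from limma. *Arg1*, at -1.42, is farthest from 0, the intervals of *Arg1* and *Acod1* do not reach 0, and no gene passed an adjusted p of 0.05.

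Other genes of these pathways were read off the same fit, in which 29.1% of all genes were higher and 26.7% lower at 4 hr, 12.8% and 12.8% from 4 to 8 hr, and 24.5% and 21.6% at 8 hr against 0 hr, and the median of all genes at 4 hr was 0.017. Of the genes around arginine supply and use, 10 of 16 were tested, and at 4 hr 2 were higher, 5 lower and 3 did not pass, with a median of -0.26. A count of 5 of 10 lower stands beside 26.7% of all genes. The risers were *Slc3a2* (1.43, adjusted p = 8.07e-08), the heavy chain shared by several amino acid transporters, and *Slc7a1* (1.31, adjusted p = 5.03e-05), the other widely expressed cationic amino acid transporter. Those that fell most were *Aldh4a1* (-0.96, adjusted p = 8.39e-06), of proline breakdown, and the creatine synthesis enzymes *Gamt* (-0.70, adjusted p = 0.00176) and *Gatm* (-0.70, adjusted p = 0.0128). From 4 to 8 hr 2 were higher (*Aldh4a1* by 0.44 and *Slc7a7* by 0.41), 1 was lower (*Gamt*, by -0.77) and 7 did not pass, and at 8 hr against 0 hr 3 were higher and 6 lower. *Slc3a2* was at a mean log2 CPM of 8.19, 9.62 and 9.39 at 0, 4 and 8 hr. At 4 hr *Slc7a2*, *Slc7a1* and *Slc3a2* thus rose, whereas *Slc7a7* did not pass the test (-0.05, limma adjusted p = 0.666).

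Unlike *Gch1*, none of the other tetrahydrobiopterin genes described here rose at 4 hr. Of 4 tested genes out of 6, 2 were lower and 2 did not pass, with a median of -0.33. *Qdpr* (-0.45, adjusted p = 0.000888) encodes a reductase that regenerates the cofactor, and *Pts* (-0.38, adjusted p = 0.0119) the synthase that acts after *Gch1*. From 4 to 8 hr *Spr*, for the last synthesis step, was 0.42 higher (adjusted p = 0.0371), *Qdpr* was lower by -0.25 (adjusted p = 0.0466) and 2 did not pass. At 8 hr against 0 hr, 2 were lower and none higher.

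Among partners of nitric oxide synthases, 4 of 7 genes were tested. *Nostrin*, which takes part in the traffic of the endothelial synthase, was lower at 4 hr (-0.94, adjusted p = 4.13e-05), the other 3 did not pass, and from 4 to 8 hr *Nosip* was 0.28 higher (adjusted p = 0.0438). The medians of this list were -0.12 and 0.15 in the 2 steps.

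The polyamine list had 14 of 16 genes tested, of which 4 were higher, 3 lower and 7 not called at 4 hr, with a median of 0.07. These counts are near the background of 29.1% higher and 26.7% lower. The synthases *Sms* (0.47, adjusted p = 0.000762) and *Srm* (0.41, adjusted p = 0.00465) and the spermine oxidase *Smox* (0.60, adjusted p = 3.69e-05) were higher. *Paox*, the oxidase that acts on the polyamines acetylated by *Sat1*, was lower by -2.01 (adjusted p = 7.80e-07), the lysosomal polyamine transporter *Atp13a2* by -1.02 (adjusted p = 3.34e-06) and the antizyme *Oaz2* by -0.27 (adjusted p = 0.0359). From 4 to 8 hr 4 were higher, among them *Paox* (1.10, adjusted p = 0.000429), *Atp13a2* (0.67) and *Smox* (0.33), 1 was lower (*Sms*, -0.58, adjusted p = 0.000731) and 9 did not pass. *Sat1* and *Paox* thus changed in opposite directions in both steps.

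Around itaconate, 21 of 22 citrate cycle genes were tested, of which 3 were higher, 11 lower and 7 not called at 4 hr, with a median of -0.23. Among all genes 29.1% were higher and 26.7% lower. The citrate synthase *Cs* (0.68, adjusted p = 2.04e-05), the citrate carrier *Slc25a1* (0.33, adjusted p = 0.00226) and the malate dehydrogenase *Mdh2* (0.25, adjusted p = 0.0303) were higher. Those that fell most were *Idh1* (-1.44, adjusted p = 1.24e-07), the cytosolic isocitrate dehydrogenase, *Suclg2* (-1.05, adjusted p = 0.000785), a succinyl-CoA ligase subunit, and *Clybl* (-1.05, adjusted p = 0.00245), an enzyme of itaconate breakdown. *Idh1* had a mean log2 CPM of 8.31, 6.87 and 7.55 at 0, 4 and 8 hr. From 4 to 8 hr *Idh1* (0.69), the oxoglutarate carrier *Slc25a11* (0.42) and *Slc25a1* (0.27) were higher, *Cs* was lower (-0.23, adjusted p = 0.0471) and 17 did not pass. None of the 53 tested genes of these 5 lists passed the test between genotypes in the mean of the times.

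**Figure D4:**
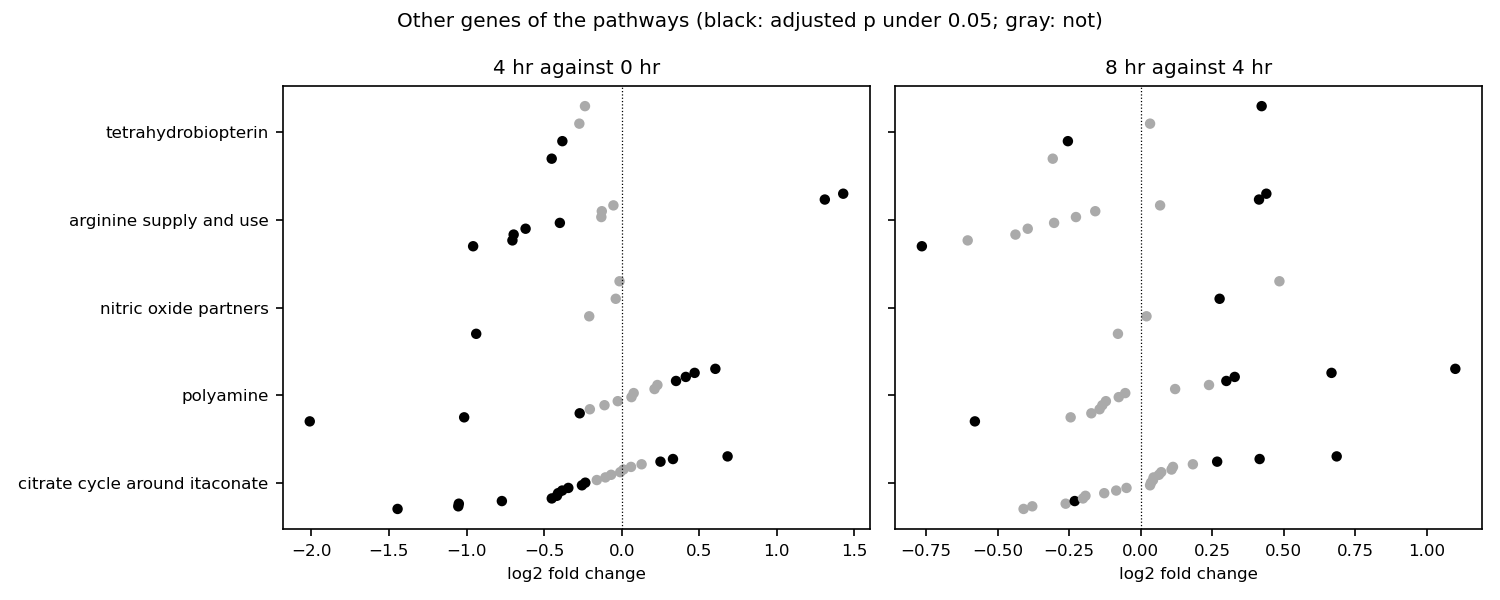
Log2 fold change of each tested gene of the 5 pathway lists (1 point per gene, mean of WT and S513A) at 4 hr against 0 hr (left) and 8 hr against 4 hr (right), spread vertically within a list in order of the change. Black points passed an adjusted p of 0.05 and gray points did not; *Paox* is the lowest point on the left at -2.01 and *Slc3a2* the highest at 1.43.

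Genes whose log2 CPM followed that of a member most closely over the 12 libraries are given as a description, since all share the same libraries and the same time course. For *Acod1* they were *Pid1*, *Tlr2* and *Cav1*, each with a Pearson r of 0.998. For *Gch1* they were *Clec4e* (0.996), *Casp4* (0.995) and *Pnp* (0.995), for *Nos2* *Gm4070*, *Gca* and *Spata13* (each 0.99), and for *Odc1* *Serinc3* (0.96), *Fam213a* (0.95) and *Hsd17b11* (0.95). For *Arg1* they were *Vsig4* (0.95), *Cadm1* (0.94) and *C1qa* (0.94). Their limma differences between S513A and WT in the mean of the times were -0.45, -0.35 and -0.47 (adjusted p = 0.470, 0.473 and 0.291). Choosing genes that follow *Arg1* over the same libraries favors genes that share its difference between genotypes. These values are therefore no separate evidence of such a difference. Among the 10 genes themselves, *Acod1* and *Slc7a2* had a Pearson r of 0.99, *Nos2* and *Slc7a2* 0.97, and *Acod1* and *Sat1* 0.011.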

How the data were processed

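The authors mapped paired-end reads as unstranded on the mouse genome mm10 with HISAT2 and counted them with featureCounts 1.6.3, per the labels and the methods. The deposited values are log2 CPM, which equal the log2 of the reads plus 0.5 over an effective library size; whole reads were recovered with a largest departure of 0.00103 read. The program that normalized them, the annotation and the gene filter are not given in the sources used here. Differences were tested with limma 3.58.1 in R 4.3.3 across all genes that reached 1 CPM in 2 or more libraries (11885 of 12850), with a mean per group, a prior that follows the level, two-sided p values and Benjamini-Hochberg adjustment over all genes tested (threshold 0.05). At 9525979 to 12439960 reads per library, 3 reads were taken as the floor. Fold changes of genes with few reads depend on the 0.5 read added.

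The 10 genes, the pathway and marker lists and the rule for named genes (all members; in each list up to 3 genes called higher and 3 lower with the largest changes at 4 hr against 0 hr and at 8 hr against 4 hr; the 3 genes most correlated with *Nos2*, *Acod1*, *Arg1*, *Gch1* and *Odc1*) were chosen with earlier results of these data known. A gene of the tetrahydrobiopterin list is not reported here, and counts and medians of that list leave it out. Positions and exon lengths are from GENCODE on GRCm38 and promoters from RefSeq. Alternatives were no filter, only genes whose mean reached 5 CPM, 1 CPM added before the log2, median-ratio scaling, a prior without a trend, voom weights, only the groups compared, replicate blocks, and each library left out in turn. The fit was tested on simulated data. Counts of reads on overlapping genes were not separated by strand. Tables were made with Python 3.11.15 and pandas 2.3.3, intervals with scipy 1.17.1 and plots with matplotlib 3.10.9.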

Additional observations from a re-analysis of the deposited data

How the results depend on the processing

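Over 50 results on the 10 genes, 817 of 833 values under an alternative kept their direction and their side of the threshold. Of the others, 1 lost the call, 9 gained it and 6 changed sign. The filters, the prior without a trend, the fit of only the groups compared and the replicate blocks leave the log2 fold change as it was by construction. Under these only the call could change. Fitted with only the groups compared, S513A against WT at 0 hr called 2 of the 10 genes (*Acod1* and *Arg1*) and 693 of all genes, against 0 and 4. Leaving out each library in turn gave 0 to 1 called genes for S513A against WT in the mean of the times, the 1 being *Arg1* without the second WT library of 4 hr. The mean difference of *Nos2* between genotypes changed from -0.13 to 0.20 with a further pseudocount of 1 CPM, and ran from -0.63 to 0.36 with a library left out (0.36 without the second WT library of 0 hr). With that pseudocount the fitted *Nos2* change at 4 hr was 4.01 instead of 8.01. With a library left out, *Asl* ran from -0.13 to 0.022 in the mean difference between genotypes (0.022 without the first WT library of 4 hr) and from -0.032 to 0.20 from 4 to 8 hr (-0.032 without the second WT library of 4 hr). *Gch1* from 4 to 8 hr ran from -0.041 to 0.24, with -0.011 without the second WT library of 4 hr and -0.041 without the second S513A library of 8 hr. None of these *Nos2*, *Asl* and *Gch1* differences that changed sign was called, and the cause was not tested. A filter on a mean of at least 5 CPM left *Arg1* out. Over all genes, the alternatives other than leaving out a library called 0 to 693 at 0 hr, 0 to 2 at 4 hr, 1 to 5 at 8 hr and 3 to 9 in the mean of the times between genotypes, where 4, 2, 4 and 8 were called. Without the first WT library of 8 hr, 2021 of all genes were called from 4 to 8 hr, against 3043.

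The replicate numbers were not taken to pair the libraries, since over 15 pairs of groups the correlation of the differences between replicates ran from -0.75 to 0.76, with 6 over 0.1. With the replicate number as a replicate block, the called genes among the 10 numbered 7, 5 and 8 in the LPS comparisons (4 against 0, 8 against 4 and 8 against 0 hr) and 0 in each comparison between genotypes, as without it. A block within genotype gave 8, 5 and 8, the added gene being *Arg2* at 4 hr (adjusted p = 0.00499 by limma). A crossed block at 0 and 4 hr, chosen after seeing the data, called 0 of the 10 genes, and 2 and 0 of all genes. Depth limits *Nos2* at 0 hr, with 0 to 3 reads, and *Arg1* at 8 hr, with 4 to 25 reads.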
